A study of Mus musculus with 9 samples.

Results

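Livers of mice given β-CYP were compared with livers of control mice in 6 of the 9 RNA sequencing libraries of a study on selenium and liver injury. The members are the 3 libraries labelled CYP and the 3 labelled Control, taken by their labels alone. All came from liver of Swiss mice aged 10 to 12 weeks. The CYP mice had received β-CYP at 40 mg/kg, and the labels give the control mice no agent. The study's text describes the CYP group as a model of liver injury. A further group of 3 libraries, in which the same β-CYP dose was combined with Na2SeO3 at 50 μg/kg, was left out of the comparison. The labels spell out neither β-CYP nor the sex of the mice, the route or the time from dose to sampling. Nothing in them tells if each library is 1 animal, and the p-values below therefore rest on library-to-library spread that could be purely technical.

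The liver makes most plasma proteins, releases glucose and lipids to the blood, makes bile acids and clears foreign compounds. In inflammation, interleukin 6, interleukin 1 and related cytokines act on hepatocytes through the transcription factors STAT3, NF-kB and C/EBP. This acute phase response raises secreted defence proteins such as serum amyloid A, fibrinogen and haptoglobin, while genes of hepatocyte metabolism often fall.

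Values are scaled counts, that is, reads assigned to a gene divided by a size factor of the library. A log2 change is the mean of log2(scaled count + 1) in β-CYP minus that in control, given with its standard error from limma's model of 3 libraries per group. Rose and fell are used of genes with an adjusted p under 0.05 (limma, two-sided, Benjamini-Hochberg over all genes tested). Libraries held 28630269 to 36029560 reads. Hepatocyte markers were abundant in every library, and of 12 pancreatic acinar markers 8 had no read in any library. Control replicate 2 stood apart from the other 5 libraries on the second principal component (16.8% of the variance), with 1805976 reads of the rRNA-like transcript AY036118 against 42232 to 71931 in the others. The first component (43.5%) separated the groups. Summed neutrophil markers ranged from 168.1 to 194.3 scaled counts in control and from 566.7 to 649.0 in β-CYP (3 of 11 tested markers rose and none fell). Summed Kupffer cell and macrophage markers ranged from 16875 to 17177 in control and from 16911 to 17307 in β-CYP. Of 13 tested markers of that list 3 rose and 3 fell, so the like sums hide changes of single genes. In whole liver, fewer cells of a type and less RNA per cell cannot be told apart.

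Of 20285 genes tested, 3046 passed (15.0%), 1399 higher in β-CYP (6.9%) and 1647 lower (8.12%). Without control replicate 2 the counts were 1111 and 1307. For 6375 genes (31.4%) all β-CYP libraries lay on 1 side of all control libraries, and every gene that passed was among them. Where the groups of a gene that passed are said below not to overlap, this adds nothing to its call. Most changes were modest: 1775 of the genes that passed differed by less than 1.5-fold, 527 by 1.5-fold to 2-fold, 370 by 2-fold to 4-fold and 374 by more. The share that passed grew with the level of the gene, from 4.71% at a mean of 1 to 10 scaled counts to 34.3% at 1000 to 10000 and 70.8% at 10000 or more, where the coefficient of variation had a median of 1.66% in control and 1.49% in β-CYP. By direction, 484 rose and 620 fell of 3221 genes at 1000 to 10000, and 130 rose and 146 fell of 390 at 10000 or more. Counts in groups of abundant liver genes are to be read against those higher shares. The plot of change against level shows both tails.

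**Figure D1:**
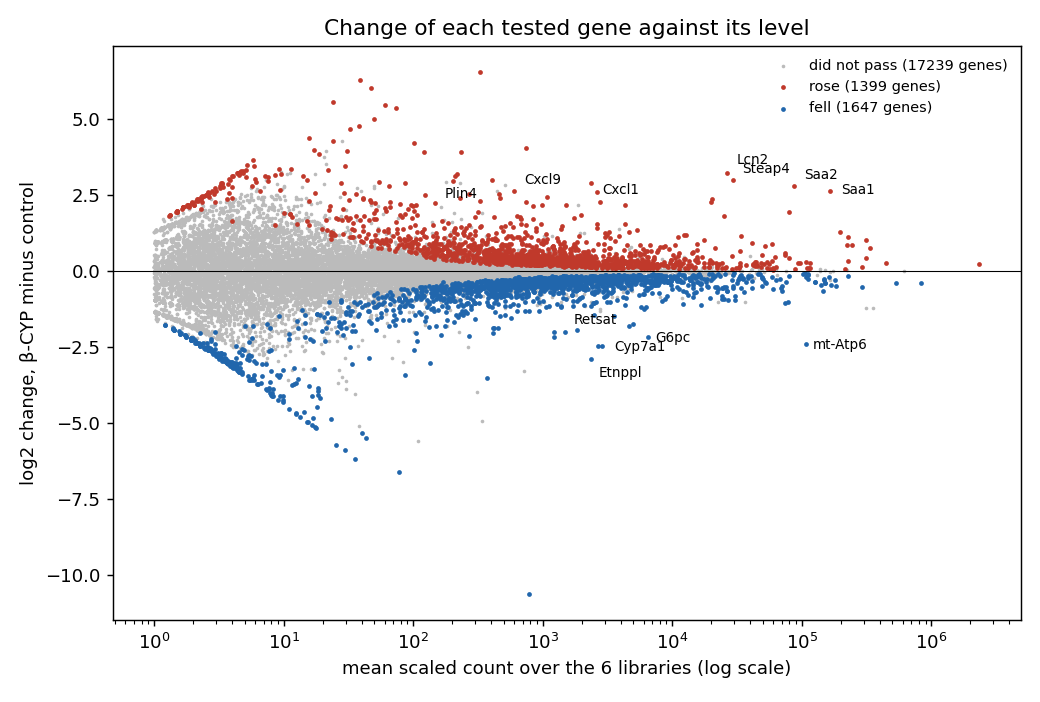
Log2 change of each of the 20285 tested genes (β-CYP minus control, vertical axis) against its mean scaled count over the 6 libraries (horizontal axis, log scale). Red points rose (1399), blue points fell (1647) and grey points did not pass; among the labelled genes Lcn2 is the highest and Etnppl the lowest, and the red and blue points reach closer to 0 at higher levels.

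Among genes that passed and rose at least 1.5-fold, those of secreted acute phase proteins added the most scaled counts. The 12 with the largest gains held 39.8% of all scaled counts gained by any gene. Alb, albumin, gained more than any of them (397046 scaled counts) at 1.19-fold and lies outside that limit. In order they were Saa1, Fga, Fgb, Hp, Itih4, Hpx, Fgg, Saa2, Serpina3n, Steap4, Lcn2 and Itih3, all but Steap4 genes of secreted proteins. Saa1, the main circulating serum amyloid A, had 45042, 45049 and 46792 scaled counts in the control libraries and 293787, 285732 and 279106 in the β-CYP libraries (log2 change 2.65 ± 0.025, adjusted p = 1.62e-08). Itih4, a plasma protein of the inter-alpha-trypsin inhibitor family, had 114881, 113534 and 116816 scaled counts in the control libraries and 283121, 277795 and 280072 in the β-CYP libraries, 2.44-fold higher. Neither gene's groups came near overlap, and the libraries within a group lay within a few percent of each other. Hp, haptoglobin, which binds free haemoglobin, was less even, with 262239, 337820.0 and 332671 scaled counts in the β-CYP libraries against 135486, 146524 and 139359 in control (log2 change 1.14 ± 0.096, adjusted p = 0.000412), the first β-CYP library being the lowest of the 3. Hpx, hemopexin, which binds free heme, rose 1.82-fold (log2 change 0.86 ± 0.013, adjusted p = 2.30e-07). The related inhibitor chain gene Itih3 rose 1.86-fold.

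The 12 genes with the largest losses, among those that passed and fell at least 1.5-fold, included mt-Atp6, Mup7, Pck1, Mup15, Mup17, Ugt2b1, C8b, Mup16, Hsp90b1, Hspa5 and Aox3. AY036118 lost more scaled counts than these together, but did not pass (log2 change -1.19 ± 1.37, adjusted p = 0.644): it was high in control replicate 2 alone. Pck1, which commits carbon to gluconeogenesis, had 105274, 103105 and 106537 scaled counts in the control libraries and 52908, 52309 and 52347 in the β-CYP libraries (log2 change -0.999 ± 0.017, adjusted p = 3.30e-07). C8b, a chain of the complement membrane attack complex, had 35318, 35518 and 35200.4 scaled counts in the control libraries and 18988, 18139.7 and 18563 in the β-CYP libraries (log2 change -0.93 ± 0.021, adjusted p = 1.23e-06). In both genes each control library was above each β-CYP library with a wide gap. The major urinary protein genes Mup7, Mup15, Mup16 and Mup17 encode pheromone carriers, and their changes were -0.64 ± 0.034, -1.05 ± 0.058, -0.80 ± 0.044 and -0.65 ± 0.039. These paralogs are near-identical, and how shared reads were counted is not given, so the values of single members are uncertain. Aox3, an aldehyde oxidase, fell 1.75-fold.

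Among genes with a mean of at least 100 scaled counts in both groups, the 10 largest rises were those of Lcn2, Steap4, Cxcl1, Saa2, Saa1, Cxcl9, Tacc2, Plin4, Mrap2 and Obp2a. Cxcl9, a chemokine that attracts T cells, had 184, 146 and 165 scaled counts in the control libraries and 1046, 997 and 1032 in the β-CYP libraries (log2 change 2.63 ± 0.095, adjusted p = 9.24e-06). Tacc2, a coiled-coil protein, had 746, 721 and 743 scaled counts in the control libraries and 3957, 5081 and 4464 in the β-CYP libraries (log2 change 2.60 ± 0.087, adjusted p = 6.74e-06). Mrap2, an accessory protein of melanocortin receptors, had 344, 315 and 351 in control and 1794, 1871 and 1789 in β-CYP, and Obp2a, a lipocalin, had 193, 129.8 and 125 in control and 775, 789 and 794 in β-CYP. For these 4 genes no control library reached a level near the lowest β-CYP library. The 10 largest falls were those of Etnppl, Ugt3a2, Cyp7a1, mt-Atp6, Gm16332, G6pc, Plekhb2, H2-Bl, Noct and Retsat. Etnppl, a lyase that breaks down phosphoethanolamine, had 4129.9, 4376 and 4007 scaled counts in the control libraries and 595, 574 and 510.2 in the β-CYP libraries (log2 change -2.90 ± 0.068, adjusted p = 1.42e-06). Retsat, which saturates retinol, had 2473, 2274 and 2308 in control and 639, 536 and 611 in β-CYP (log2 change -1.98 ± 0.075, adjusted p = 1.06e-05). Plekhb2, a membrane-associated protein, had 383, 415 and 518 in control and 74.9, 97.0 and 130.3 in β-CYP, a wider relative spread than that of Etnppl or Retsat. Gm16332, a predicted gene, fell 4.5-fold. Steap4, Cxcl1, Cyp7a1, G6pc and Noct are taken up with their pathways.

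Interleukin 6 family cytokines bind a receptor of their own and the shared chain gp130 (Il6st), which activates JAK kinases and STAT3. Of 22 genes listed for this pathway 19 were tested, of which 8 rose and 3 fell, with a median log2 change of 0.26 against -0.01 over all genes tested. Receptors moved in both directions. Osmr, the oncostatin M receptor, had 139, 129.8 and 103 scaled counts in the control libraries and 299, 406 and 319.8 in the β-CYP libraries (log2 change 1.46 ± 0.17, adjusted p = 0.00165), and Il6ra, the interleukin 6 receptor, had 3507, 3548 and 3324 in control and 4782, 4610.0 and 4687 in β-CYP (log2 change 0.44 ± 0.035, adjusted p = 0.000316). Lifr, the leukaemia inhibitory factor receptor, had 16084, 16722 and 16492 in control and 7449, 7708 and 7989.7 in β-CYP (log2 change -1.09 ± 0.032, adjusted p = 3.41e-06), and Il11ra1, the interleukin 11 receptor, fell 1.66-fold. So 2 receptors were higher in every β-CYP library and 2 lower, while the shared chain Il6st did not pass (log2 change 0.41 ± 0.15, adjusted p = 0.142), with the first control library at 5407, 8089 and 8172 standing below the others of its group. Of the ligands, Osm had no read in any of the 6 libraries, and Il6 had no entry of that symbol among the genes analysed.

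Of 5 tested kinases and transcription factors downstream 3 rose and none fell, and of 7 feedback and target genes 3 rose and 1 fell. Stat3 had 3856, 4075 and 4039 scaled counts in the control libraries and 7309, 7507 and 6882 in the β-CYP libraries (log2 change 0.86 ± 0.041, adjusted p = 3.02e-05). Its feedback inhibitor Socs3 had 306, 268 and 262 scaled counts in the control libraries and 978, 939 and 1009 in the β-CYP libraries (log2 change 1.81 ± 0.078, adjusted p = 1.79e-05). The kinase gene Pim1, a STAT3 target, rose 1.57-fold (log2 change 0.65 ± 0.056, adjusted p = 0.000465). All 3 were higher in each β-CYP library than in any control library. Pim3, a related kinase on the list, went the other way (2409.9, 2399.7 and 2429 in control and 1622, 1571 and 1777 in β-CYP; log2 change -0.54 ± 0.051, adjusted p = 0.000683). In the plot of receptor, carrier and target genes the β-CYP libraries of Lifr alone lie below control.

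**Figure D2:**
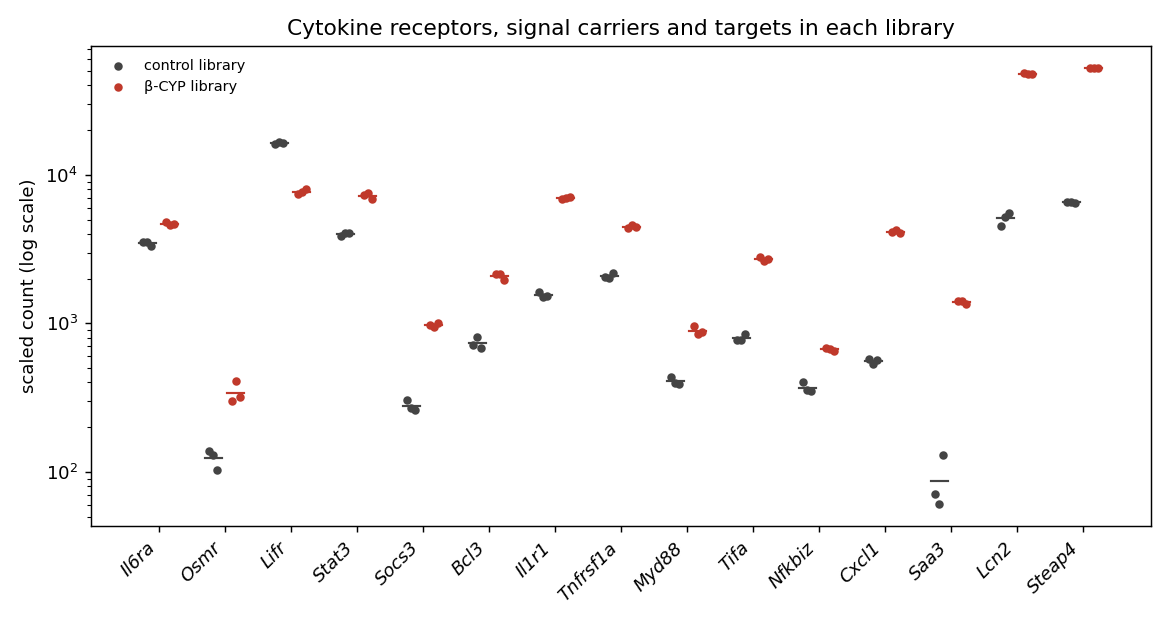
Scaled counts (vertical axis, log scale) of 15 genes of cytokine signalling in each of the 3 control libraries (grey) and 3 β-CYP libraries (red); short lines are group means. The groups do not overlap for any of the 15 genes, and Lifr is the only one drawn here that is lower in β-CYP.

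Interleukin 1 and TNF signal through adaptors to NF-kB. All 41 genes listed for this pathway were tested; 13 rose and 6 fell, with a median log2 change of 0.35, and without control replicate 2 the counts were 13 and 3. The falls were also 3 without control replicate 3, β-CYP replicate 1 or β-CYP replicate 2, and 1 without the intensity trend. Il1r1, the signalling receptor of interleukin 1, had 1621, 1504 and 1537 scaled counts in the control libraries and 6918, 7036 and 7089 in the β-CYP libraries (log2 change 2.17 ± 0.037, adjusted p = 3.30e-07). The TNF receptor Tnfrsf1a had 2043, 2012 and 2172 in control and 4367, 4615 and 4491 in β-CYP (log2 change 1.11 ± 0.041, adjusted p = 9.48e-06), whereas Tnfrsf1b fell by a smaller step (-0.36 ± 0.061), a call lost without the intensity trend (adjusted p = 0.0596). Il1rap, the co-receptor that Il1r1 needs to signal, also fell (5655, 5521 and 5414 in control and 4608, 4747 and 4531 in β-CYP; log2 change -0.26 ± 0.031, adjusted p = 0.00204), a call lost with equal totals and without the intensity trend (adjusted p up to 0.0612). Both receptors that rose were higher by more than the whole spread of either group. Of the adaptors, Myd88 had 437, 399.6 and 389.7 in control and 958, 845 and 869 in β-CYP (log2 change 1.12 ± 0.075, adjusted p = 0.000142) and Tifa, which brings TRAF6 to its receptors, had 775, 778 and 851 in control and 2810.4, 2619 and 2705 in β-CYP (log2 change 1.76 ± 0.053, adjusted p = 4.11e-06). Alpk1, the kinase upstream of TIFA that senses bacterial sugars, rose 4.99-fold; it was not on the list and was named after its value was seen.

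Nuclear members and targets of NF-kB moved less evenly. Nfkb2 (0.96 ± 0.12), Rela (0.41 ± 0.060) and the atypical cofactor Bcl3 (1.51 ± 0.075) rose, and Nfkb1 did not pass (0.02 ± 0.064, adjusted p = 0.891). Bcl3 had 710.2, 809 and 686 scaled counts in the control libraries and 2155, 2139 and 1961 in the β-CYP libraries. The target and cofactor Nfkbiz rose 1.82-fold, Zc3h12a, an RNase that degrades cytokine mRNA, 2.14-fold, and the adhesion molecule Icam1 1.88-fold. Nfkbia, the feedback inhibitor of NF-kB, fell (-0.30 ± 0.061, adjusted p = 0.0203), as did Birc3, an inhibitor of apoptosis (-0.64 ± 0.14, adjusted p = 0.0287), and both calls were lost without control replicate 2 or 3, without β-CYP replicate 1 or 2 and without the intensity trend (adjusted p up to 0.0833 and 0.108). The call of Nfkbia was also lost with equal totals and that of Birc3 without control replicate 1. Il1rn, the secreted antagonist of interleukin 1, had 69.8, 62.4 and 82.3 in control and 181, 188 and 263 in β-CYP (log2 change 1.53 ± 0.19, adjusted p = 0.00245). The cytokines themselves gave no such picture. Il1b had 43.5, 20.1 and 60.6 in control and 59.3, 39.8 and 63.8 in β-CYP and did not pass (log2 change 0.49 ± 0.42, adjusted p = 0.535), and Tnf had scaled counts of 0, 5.03 and 0 in control and 2.08, 0 and 2.77 in β-CYP, a few reads at most. Of 38 chemokine and chemokine receptor genes tested (44 listed), 8 rose and 1 fell, and leaving out any library except control replicate 1 gave 5 higher, as did equal totals. Ccl6, a chemokine made by myeloid cells, rose 1.69-fold, and Ccl2 was not called (9.11, 7.05 and 16.0 in control and 5.20, 8.17 and 12.9 in β-CYP; adjusted p = 0.781).

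All 27 listed positive acute phase genes were tested, and 24 rose and 1 fell (24 and 1 without control replicate 2), with a median log2 change of 0.90. Members ranged in control mean from 2.83 scaled counts (A2m) to 604847 (Serpina3k), and the share of all genes that passed grew with level as given above. The amyloid and pentraxin members rose 6 of 6. Saa3, a serum amyloid A made by macrophages and epithelium as well as liver, had 70.8, 60.4 and 130.3 scaled counts in the control libraries and 1405, 1425 and 1358 in the β-CYP libraries (log2 change 4.07 ± 0.27, adjusted p = 0.000133), the largest relative step of the family. Saa4, a constitutive member, rose 1.77-fold, and Apcs, serum amyloid P, 1.85-fold. A2m, the broad protease inhibitor alpha-2-macroglobulin, had 3.04, 2.01 and 3.43 in control and 42.6, 66.4 and 66.5 in β-CYP (log2 change 3.95 ± 0.34, adjusted p = 0.000445). Lrg1, a leucine-rich glycoprotein, had 20677, 20783 and 21167 in control and 47526, 46900.3 and 47226 in β-CYP (log2 change 1.18 ± 0.017, adjusted p = 1.98e-07), and Lbp, which carries endotoxin to its receptor, had 7816, 7560.4 and 7561 in control and 18595, 16989 and 17442 in β-CYP (log2 change 1.21 ± 0.037, adjusted p = 4.34e-06). Across these genes every β-CYP library was above every control library. The fibrinogen chains Fga, Fgb and Fgg rose 2.04-fold, 1.72-fold and 1.84-fold, and the related Fgl1 1.91-fold. Not every member followed. Orm2 did not pass (0.03 ± 0.025) beside small rises of Orm1 (0.20 ± 0.015, lost with equal totals and without the intensity trend, adjusted p up to 0.0907) and Orm3 (0.61 ± 0.087). Serpina3k fell (-0.38 ± 0.015, adjusted p = 1.08e-05, but 0.367 after quantile normalization) while its paralogs Serpina3n (1.97 ± 0.016) and Serpina3g (1.26 ± 0.13) rose.

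The upstream sequences of 5 genes that rose are shown because they hold short motifs of the factors named above. Saa1 and Lcn2 are on the acute phase list, and Steap4, Socs3 and Cxcl1 are not. Each is the 250 bases before the RefSeq start of the gene on GRCm38.p6, written 5′ to 3′ on the gene's strand. Saa1 lies at chr7:46742981-46743230, minus strand; Lcn2 at chr2:32387740-32387989, minus strand; Steap4 at chr5:7960222-7960471, plus strand; Socs3 at chr11:117969367-117969616, minus strand; and Cxcl1 at chr5:90890995-90891244, plus strand. Capitals mark a C/EBP motif (TTGCNNAA) in Saa1 and Lcn2, a STAT motif (TTCNNNGAA) and then a C/EBP motif in Steap4, a STAT motif in Socs3, and in Cxcl1 2 overlapping NF-kB motifs (GGGA and TTCC with 2 bases between, one on each strand).
Saa1: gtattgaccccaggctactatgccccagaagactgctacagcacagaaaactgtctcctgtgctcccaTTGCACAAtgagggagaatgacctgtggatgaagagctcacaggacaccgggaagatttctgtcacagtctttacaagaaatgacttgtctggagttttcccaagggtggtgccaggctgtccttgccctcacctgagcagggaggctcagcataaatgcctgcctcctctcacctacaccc
Lcn2: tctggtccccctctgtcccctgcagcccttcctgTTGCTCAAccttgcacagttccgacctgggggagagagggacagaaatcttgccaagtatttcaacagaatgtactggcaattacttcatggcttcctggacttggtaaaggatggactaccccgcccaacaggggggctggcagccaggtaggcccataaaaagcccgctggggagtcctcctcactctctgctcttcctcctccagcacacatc
Steap4: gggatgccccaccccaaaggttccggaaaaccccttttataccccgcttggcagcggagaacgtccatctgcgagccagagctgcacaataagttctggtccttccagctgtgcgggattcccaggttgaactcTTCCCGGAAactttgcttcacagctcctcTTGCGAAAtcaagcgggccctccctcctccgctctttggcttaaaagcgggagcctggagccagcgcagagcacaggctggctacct
Socs3: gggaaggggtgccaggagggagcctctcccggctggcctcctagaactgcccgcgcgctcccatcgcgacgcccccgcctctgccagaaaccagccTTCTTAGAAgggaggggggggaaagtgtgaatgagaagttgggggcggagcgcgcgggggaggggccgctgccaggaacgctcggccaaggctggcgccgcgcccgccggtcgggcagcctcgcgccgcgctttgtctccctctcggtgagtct
Cxcl1: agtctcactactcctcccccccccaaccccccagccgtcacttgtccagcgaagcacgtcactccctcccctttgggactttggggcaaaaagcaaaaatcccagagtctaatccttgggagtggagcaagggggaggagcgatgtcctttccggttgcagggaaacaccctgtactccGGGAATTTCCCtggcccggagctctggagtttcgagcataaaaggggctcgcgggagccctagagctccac
Of the 27 acute phase genes 19 had an entry among the RefSeq promoters. The C/EBP motif, searched on both strands, was in 11 of the 19 genes, of which 10 rose and Orm2 did not pass. By promoter it was in 55% of the 20 of the list, against 9.56% of all 32851 and 8.23% of those of genes tested. The STAT motif was in 5 of the 19, all of which rose, against 7.02% of promoters, and the NF-kB motif in none of the 19 against 1.21%. On the list as a whole 24 of the 27 genes rose, so rises among members with a motif do not set them apart. A match describes letters in this window and is not evidence of binding.

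The genes that carry these sequences rose by large factors. Lcn2, a lipocalin that binds bacterial siderophores, had 4520.4, 5193 and 5548 scaled counts in the control libraries and 48484, 47651 and 48064 in the β-CYP libraries (log2 change 3.25 ± 0.070, adjusted p = 1.08e-06). Steap4, a metalloreductase of iron and copper, had 6549.9, 6565 and 6476 scaled counts in the control libraries and 52298, 52190.3 and 52643 in the β-CYP libraries (log2 change 3.00 ± 0.017, adjusted p = 3.63e-09). Cxcl1, which attracts neutrophils, had 577, 534 and 563 scaled counts in the control libraries and 4096, 4277 and 4079.9 in the β-CYP libraries (log2 change 2.89 ± 0.045, adjusted p = 2.36e-07). In each of the 3 genes the lowest β-CYP library was several times the highest control library. Summed neutrophil markers were higher in β-CYP too, as given above, and their part in these values was not tested.

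Negative acute phase genes encode carriers known to fall in inflammation. Of 17 tested negative acute phase genes 10 rose and 2 fell, with a median log2 change of 0.07. The counts were 4 and 1 with equal totals and without the intensity trend, and 6 and 4 after quantile normalization. Ttr, transthyretin, did not pass (0.05 ± 0.021), and Alb, albumin, rose slightly (0.25 ± 0.021, adjusted p = 0.000477). Its call was lost with equal totals, without the intensity trend and after quantile normalization, where its change was 0. Serpina7, thyroxine-binding globulin, had 199, 180.2 and 186 scaled counts in the control libraries and 594, 630.0 and 749.6 in the β-CYP libraries (log2 change 1.79 ± 0.10, adjusted p = 7.94e-05). Igfals, which holds insulin-like growth factor in serum, fell 1.92-fold.

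Of 27 tested iron genes 6 rose and 7 fell (6 and 4 with equal totals). Hepcidin closes the iron exporter ferroportin, and its 2 genes did not move alike. Hamp had 7401, 7497 and 7529 in control and 7103, 7369 and 7195 in β-CYP and did not pass (log2 change -0.05 ± 0.024, adjusted p = 0.248), whereas Hamp2 had 179, 197 and 182 in control and 63.4, 58.2 and 54.5 in β-CYP (log2 change -1.65 ± 0.13, adjusted p = 0.000262). Atoh8, a transcription factor downstream of BMP signals, fell 1.78-fold and Id1, another BMP target, rose 2.32-fold (log2 change 1.197 ± 0.20, adjusted p = 0.00849). Slc40a1, ferroportin itself, had 5343, 5303 and 5504 scaled counts in the control libraries and 3004, 2847 and 3133 in the β-CYP libraries (log2 change -0.85 ± 0.041, adjusted p = 3.35e-05), while the importer gene Slc11a2 rose 1.4-fold. So the exporter mRNA was lower and an importer mRNA higher in every β-CYP library. Trf, transferrin, and Fth1, ferritin heavy chain, did not pass (0.01 ± 0.020 and 0.06 ± 0.015). Hmox1, heme oxygenase, had 634, 765 and 714 in control and 1344, 1257 and 1299.6 in β-CYP (log2 change 0.89 ± 0.076, adjusted p = 0.000444).

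Metallothioneins bind zinc and copper, and both tested members rose. Mt1 had 6542, 6480.4 and 6509 scaled counts in the control libraries and 33922, 33502 and 33687 in the β-CYP libraries (log2 change 2.37 ± 0.018, adjusted p = 1.00e-08), and Mt2 had 6701, 6800.4 and 6766 in control and 32866, 33372 and 33467 in β-CYP (log2 change 2.30 ± 0.019, adjusted p = 1.00e-08). The 3 libraries of a group lay close together and the groups far apart. Among importers Slc39a14, which brings zinc and iron into hepatocytes, had 7622, 7755 and 7191 in control and 16895, 17684 and 17114 in β-CYP (log2 change 1.196 ± 0.035, adjusted p = 3.41e-06). Of 6 tested zinc exporters and sensors 2 rose and 1 fell. The metal-sensing factor Mtf1 did not pass (-0.08 ± 0.064). Upstream sequences of both genes are shown with the cores of metal response elements (TGCACNC or TGCGCNC, either strand) in capitals, Mt1 at chr8:94178839-94179088, plus strand and Mt2 at chr8:94172368-94172617, plus strand.
Mt1: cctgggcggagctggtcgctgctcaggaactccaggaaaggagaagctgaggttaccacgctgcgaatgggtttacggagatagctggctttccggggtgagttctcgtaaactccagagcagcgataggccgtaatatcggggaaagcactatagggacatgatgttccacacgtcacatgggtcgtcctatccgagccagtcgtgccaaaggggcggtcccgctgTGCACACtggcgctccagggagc
Mt2: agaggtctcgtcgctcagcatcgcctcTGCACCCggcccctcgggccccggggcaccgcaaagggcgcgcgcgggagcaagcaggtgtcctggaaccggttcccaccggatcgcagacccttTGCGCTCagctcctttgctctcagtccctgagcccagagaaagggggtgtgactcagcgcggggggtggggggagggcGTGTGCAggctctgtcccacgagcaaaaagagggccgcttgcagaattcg
Within these 250 bases Mt1 holds 1 such core and Mt2 holds 3. At least 1 is held by 21.4% of all promoters and by 28.0% of those of genes tested.

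Growth hormone acts on the liver through its receptor, JAK2 and STAT5, which drive Igf1, the feedback genes Socs2 and Cish, and a male-biased set of liver genes. Here 60 of 63 listed genes of this axis were tested, and 3 rose and 31 fell (2 and 31 without control replicate 2), with a median log2 change of -0.42. Of the signalling genes none rose and 11 of 16 fell. Ghr, the receptor, had 16935, 16561 and 16129 scaled counts in the control libraries and 12018, 12318 and 12058 in the β-CYP libraries (log2 change -0.45 ± 0.025, adjusted p = 6.24e-05), and Igf1 had 21706, 21262 and 21747 in control and 15266, 15543 and 15497 in β-CYP (log2 change -0.48 ± 0.019, adjusted p = 1.25e-05). Socs2 had 243, 232 and 245 scaled counts in the control libraries and 23.9, 24.5 and 39.7 in the β-CYP libraries (log2 change -3.02 ± 0.22, adjusted p = 0.000211), and Cish had 260.0, 269.8 and 241 in control and 111, 104 and 129 in β-CYP (log2 change -1.16 ± 0.12, adjusted p = 0.00101). The feedback genes fell by larger factors than the receptor or Igf1, and the groups overlapped for none of these 4 genes. Jak2, Stat5a and Stat5b did not pass (-0.05 ± 0.076, 0.28 ± 0.091 and -0.12 ± 0.047).

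Of 26 tested male-biased targets 18 fell and 2 rose, and of 19 tested female-biased targets 2 fell and 1 rose. Hsd3b5, a male-biased steroid reductase, had 7165, 7209 and 7262 scaled counts in the control libraries and 2106, 1959 and 2177 in the β-CYP libraries (log2 change -1.79 ± 0.043, adjusted p = 1.50e-06). Its relative Hsd3b2 had 7474, 7484 and 7798 in control and 2175, 2275 and 2356 in β-CYP (log2 change -1.74 ± 0.038, adjusted p = 1.14e-06), and reads of these 2 genes may be shared. Cyp4a12b fell 1.9-fold and Cyp7b1, an oxysterol hydroxylase, 2.14-fold. Bcl6, a STAT5-regulated repressor, fell 1.41-fold. Elovl3, a male-biased fatty acid elongase, went the other way (5898, 5734 and 5766 in control and 7125, 7219 and 7461 in β-CYP; log2 change 0.33 ± 0.028, adjusted p = 0.000431). Among female-biased genes Cyp2a4 fell 3.64-fold, and Cyp2b9 did not pass (25.3, 44.3 and 56.0 in control and 29.1, 42.9 and 45.3 in β-CYP).

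Insulin and glucagon set the liver between storing and releasing glucose. All 36 listed genes were tested; 7 rose and 16 fell, with a median log2 change of -0.18. Both insulin receptor substrates were lower. Irs1 had 871, 961 and 867 scaled counts in the control libraries and 453, 379.8 and 277 in the β-CYP libraries (log2 change -1.31 ± 0.17, adjusted p = 0.00319), and Irs2 had 652, 649 and 574 in control and 342, 408 and 375 in β-CYP (log2 change -0.74 ± 0.091, adjusted p = 0.0024). Ptpn1, a phosphatase that switches off the insulin receptor, had 961, 912 and 963 in control and 1864, 1798 and 1629 in β-CYP (log2 change 0.90 ± 0.061, adjusted p = 0.00015). Insr, the receptor, did not pass (2072, 2189 and 2794 in control and 2294, 2836 and 2349 in β-CYP; adjusted p = 0.726). Foxo1 fell 1.42-fold, and the coactivator Ppargc1a had 414, 382 and 423 in control and 236, 169 and 186 in β-CYP (log2 change -1.05 ± 0.13, adjusted p = 0.00273). G6pc, the enzyme that frees glucose from its phosphate, had 10535, 10742 and 10317 scaled counts in the control libraries and 2372, 2226 and 2517 in the β-CYP libraries (log2 change -2.15 ± 0.047, adjusted p = 1.14e-06). Fbp1 fell 1.49-fold, Slc2a2, the glucose transporter of hepatocytes, 1.38-fold, and Tat, which opens tyrosine breakdown, 1.39-fold, but Pcx, which feeds pyruvate into the same route, rose 1.29-fold. Of 33 glycolysis and glycogen genes 7 rose and 6 fell (3 and 4 with equal totals and without the intensity trend): Ldha (0.76 ± 0.029), Pkm (0.78 ± 0.061) and Pfkfb1 (0.74 ± 0.041) rose, and Pklr, the liver pyruvate kinase (-0.87 ± 0.026), and Gys2, liver glycogen synthase (-0.31 ± 0.033), fell.

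**Figure D3:**
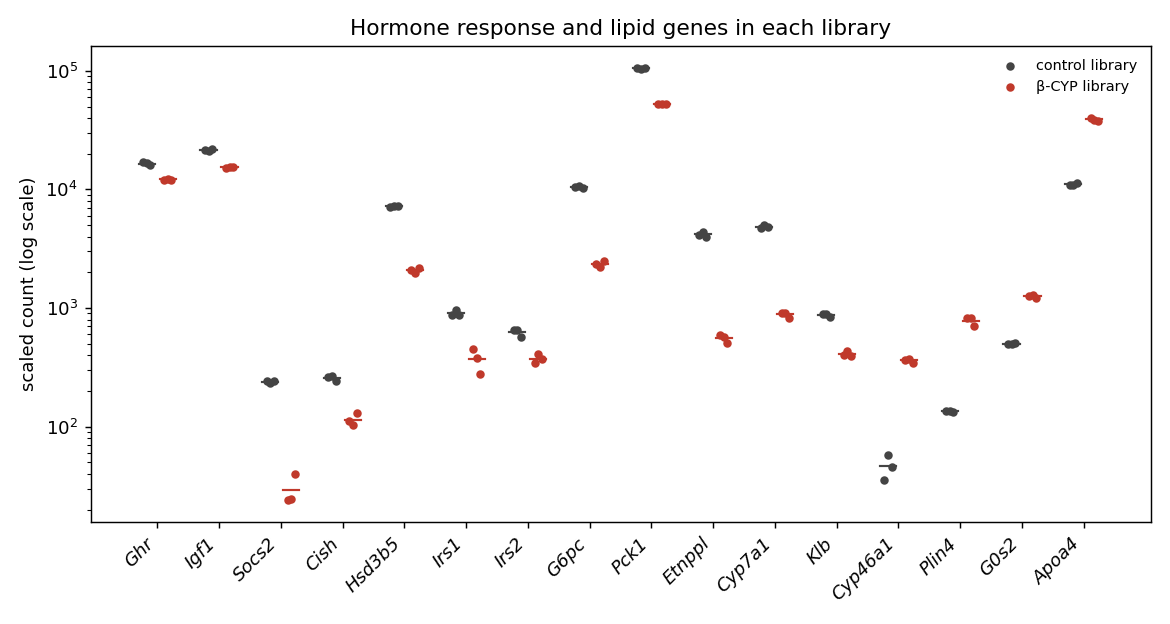
Scaled counts (vertical axis, log scale) of 16 hormone response and lipid genes in each control library (grey) and β-CYP library (red); short lines are group means. The first 12 genes, from Ghr to Klb, are lower in every β-CYP library, and the last 4, Cyp46a1, Plin4, G0s2 and Apoa4, are higher.

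Lipid genes split by role. Of 17 tested genes of lipid droplets and lipolysis 9 rose and 2 fell, with a median log2 change of 0.39. Plin4, which coats droplets, had 136, 135 and 133 scaled counts in the control libraries and 821, 829 and 703 in the β-CYP libraries (log2 change 2.53 ± 0.087, adjusted p = 7.51e-06). Plin2, the main droplet coat of hepatocytes, had 7477, 7374 and 7403 in control and 13725, 13283 and 13682 in β-CYP (log2 change 0.87 ± 0.022, adjusted p = 1.95e-06), and Plin3 and Plin5 rose 1.64-fold and 1.44-fold. G0s2, which inhibits the lipase ATGL, had 497, 495 and 504 in control and 1268, 1298 and 1209 in β-CYP (log2 change 1.33 ± 0.049, adjusted p = 9.48e-06). These 4 droplet coats and the inhibitor were higher in each β-CYP library. Fatty acid binding proteins moved apart: Fabp4 had 293, 233 and 320.0 in control and 848, 847 and 828 in β-CYP (log2 change 1.59 ± 0.12, adjusted p = 0.000242) and Fabp5 had 1481, 1443 and 1490.3 in control and 570.0, 699 and 672 in β-CYP (log2 change -1.19 ± 0.081, adjusted p = 0.000153). Of 18 tested genes of fatty acid synthesis 4 rose and 5 fell, and of 8 tested genes of triglyceride synthesis none rose and 4 fell. Acly (-0.73 ± 0.030), Elovl6 (-0.84 ± 0.040), Scd1 (-0.54 ± 0.016) and Dgat2 (-0.29 ± 0.026) fell, Elovl5 rose (0.29 ± 0.019), and Fasn did not pass (-0.15 ± 0.042).

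Oxidation genes moved by small steps. Of 43 genes of fatty acid oxidation and ketone formation, all tested, 25 rose and 5 fell (15 and 4 with equal totals, 10 and 4 without the intensity trend), with a median log2 change of 0.20. Cpt1a, which admits fatty acids to mitochondria, had 13898, 13994 and 14033 scaled counts in the control libraries and 17449.8, 17243 and 17260.5 in the β-CYP libraries (log2 change 0.31 ± 0.018, adjusted p = 6.96e-05). The groups did not overlap. Ppara, the receptor that regulates this programme, did not pass (-0.11 ± 0.037). Among apolipoproteins, Apoa4 had 10981, 10878 and 11242 scaled counts in the control libraries and 40308, 38661 and 37899 in the β-CYP libraries (log2 change 1.82 ± 0.028, adjusted p = 2.30e-07), and Apob did not pass (0.06 ± 0.022). The highest control library of Apoa4 was far below the lowest β-CYP library.

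Of 22 tested bile acid genes 3 rose, 9 fell and 10 did not pass, with a median log2 change of -0.09. Cyp7a1, the rate-limiting enzyme, had 4768, 4983 and 4781 scaled counts in the control libraries and 906, 913 and 831 in the β-CYP libraries (log2 change -2.45 ± 0.048, adjusted p = 6.44e-07), and Cyp8b1, which sets the share of cholic acid, fell 1.77-fold. Klb and Fgfr4, the co-receptor and receptor through which the gut hormone FGF15 represses Cyp7a1, also fell, Klb having 890.3, 888 and 839 in control and 399, 433 and 393 in β-CYP (log2 change -1.09 ± 0.063, adjusted p = 7.26e-05) and Fgfr4 2155, 2057 and 2087 in control and 1504, 1412 and 1419.7 in β-CYP (log2 change -0.54 ± 0.042, adjusted p = 0.000285). Nr1h4, the bile acid receptor, rose 1.49-fold, and Nr0b2, its target repressor, did not pass (-0.18 ± 0.074). Against this direction Cyp46a1, a cholesterol 24-hydroxylase best known from brain, had 35.4, 57.4 and 45.7 in control and 365, 373 and 347 in β-CYP (log2 change 2.97 ± 0.18, adjusted p = 0.000102). Of 30 cholesterol genes 3 rose and 12 fell (1 and 11 with equal totals): Mvd, of the synthesis route (-0.67 ± 0.093), and Insig1, which restrains it (-0.46 ± 0.027), fell, and Srebf2, their regulator, rose (0.43 ± 0.038). Uptake transporters of bile acids and drugs fell in 8 and rose in 3 of 12 tested, for example Slc10a1 (-0.52 ± 0.021) and Slco1a1 (-0.67 ± 0.029). The canalicular bile salt pump Abcb11 fell (-0.72 ± 0.029) and the basolateral exporter Abcc3 rose (0.59 ± 0.037).

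Enzymes that clear foreign compounds moved both ways, with more falls. Of 42 tested cytochrome P450 enzymes of families 1 to 3, 7 rose and 17 fell (with their 5 partner genes 9 and 19, and 7 and 11 of these without the intensity trend). Cyp2b10, the classic target of the receptor CAR, had 523, 579 and 515 scaled counts in the control libraries and 2566, 2409.7 and 2397 in the β-CYP libraries (log2 change 2.19 ± 0.060, adjusted p = 2.70e-06), and Cyp3a13 had 7153, 6812 and 6827 in control and 15250.0, 14906 and 15476 in β-CYP (log2 change 1.13 ± 0.028, adjusted p = 1.78e-06). Cyp3a11, a target of the receptor PXR, rose 1.53-fold, and Nr1i2, which encodes PXR, 1.43-fold. Por, which passes electrons to these enzymes, rose 1.34-fold. These 5 genes were above control in every β-CYP library. Cyp2a5 (-0.65 ± 0.028), Cyp2f2 (-0.36 ± 0.013) and Cyp2c54 (-0.33 ± 0.031) fell, and Cyp2e1 did not pass (0.01 ± 0.023). Glucuronosyltransferases fell in 10 and rose in 1 of 18 tested: Ugt3a2 had 4414, 4438 and 4668 in control and 788, 848 and 823 in β-CYP (log2 change -2.46 ± 0.044, adjusted p = 3.86e-07), Ugt2b1 had 40503, 40127 and 40190.4 in control and 20491, 21042 and 20838 in β-CYP (log2 change -0.95 ± 0.017, adjusted p = 4.10e-07), and Ugt2b38 fell 2.05-fold. Carboxylesterases, which hydrolyse ester compounds, fell in 9 and rose in 1 of 21 tested (3 and none with equal totals and without the intensity trend); Ces3b had 16965, 21509.6 and 17199.6 in control and 10794, 10771 and 9089.6 in β-CYP (log2 change -0.86 ± 0.11, adjusted p = 0.00268). Sulfotransferases passed in 2 up and 1 down of 9 (33.3%, against 15.0% of all genes tested), Sult1a1 rising 1.6-fold. Glutathione and NRF2 pathway genes passed in 4 up and 3 down of 27 (3 up and none down without the intensity trend). That was 25.9%, against 15.0% of all genes tested. The NRF2 target Nqo1 did not pass (56.7, 89.6 and 119 in control and 82.2, 65.3 and 73.9 in β-CYP). Members of these families share sequence, so single-member values are uncertain.

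Genes of protein folding in the endoplasmic reticulum were lower. Of 23 tested chaperones and folding enzymes 16 fell and 1 rose, with a median log2 change of -0.30, and of 16 tested genes of degradation 8 fell and none rose. Over all 101 tested genes of the compartment 8 rose and 34 fell, and 3 and 21 with equal totals. Creld2, a small folding factor, had 3626, 3530.1 and 3674 scaled counts in the control libraries and 1363, 1398 and 1238 in the β-CYP libraries (log2 change -1.44 ± 0.052, adjusted p = 9.48e-06). Hspa5, the central chaperone BiP, had 32098, 30846 and 31685 scaled counts in the control libraries and 18275, 13887 and 18518 in the β-CYP libraries (log2 change -0.91 ± 0.11, adjusted p = 0.0019), and Hsp90b1, GRP94, had 44426, 42892 and 43805 in control and 27362, 27525 and 27638 in β-CYP (log2 change -0.67 ± 0.018, adjusted p = 2.70e-06). Hspa5 was lowest in the second β-CYP library, and the groups overlapped for none of the 3. Hyou1 fell 2.25-fold and Manf, a secreted chaperone partner, 2.01-fold. Derl3 (-1.51 ± 0.16) and the ubiquitin ligase gene Syvn1 (-1.01 ± 0.15) of the degradation route fell too. The calls of Calr (-0.22 ± 0.018), Canx (-0.26 ± 0.022) and Pdia6 (-0.13 ± 0.020) were small and were lost without the intensity trend or with equal totals (adjusted p up to 0.0787, 0.0529 and 0.272). Of the sensors, Xbp1 rose (0.63 ± 0.039), Ern1 (-0.57 ± 0.033) and Atf6 (-0.38 ± 0.037) fell and Eif2ak3 did not pass. Of 28 tested translocation genes 3 rose and 5 fell, and of 27 tested genes of vesicle transport 3 rose and 3 fell. P4hb, a disulfide isomerase, was the folding gene that rose (0.12 ± 0.016), a call lost with equal totals, after quantile normalization and without the intensity trend (adjusted p up to 0.398).

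Upstream sequences of 4 of the chaperone genes are shown because they hold the endoplasmic reticulum stress element. It is a CCAAT box and a CCACG box with 9 bases between (either strand), in capitals. It stands once in each, except that Hsp90b1 holds 2 separate copies, 1 on each strand. The 4 sequences lie at chr2:34771840-34772089, plus strand for Hspa5, chr15:88819396-88819645, plus strand for Creld2, chr10:86705445-86705694, minus strand for Hsp90b1 and chr8:84846932-84847181, minus strand for Calr.
Hspa5: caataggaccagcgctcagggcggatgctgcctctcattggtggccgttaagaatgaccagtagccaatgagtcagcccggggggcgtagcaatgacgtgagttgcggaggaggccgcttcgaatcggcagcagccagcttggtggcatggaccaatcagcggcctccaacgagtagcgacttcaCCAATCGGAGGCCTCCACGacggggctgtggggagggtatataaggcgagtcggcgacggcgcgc
Creld2: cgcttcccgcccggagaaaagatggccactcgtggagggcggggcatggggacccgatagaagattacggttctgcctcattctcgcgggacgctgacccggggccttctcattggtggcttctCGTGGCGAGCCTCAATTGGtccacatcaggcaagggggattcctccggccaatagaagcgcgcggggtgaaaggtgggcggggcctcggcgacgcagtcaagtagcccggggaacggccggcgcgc
Hsp90b1: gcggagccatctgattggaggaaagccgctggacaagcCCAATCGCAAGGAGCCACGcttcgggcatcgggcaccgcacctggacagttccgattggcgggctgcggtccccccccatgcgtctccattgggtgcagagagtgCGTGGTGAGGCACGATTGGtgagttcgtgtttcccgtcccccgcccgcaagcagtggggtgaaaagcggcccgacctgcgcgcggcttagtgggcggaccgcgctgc
Calr: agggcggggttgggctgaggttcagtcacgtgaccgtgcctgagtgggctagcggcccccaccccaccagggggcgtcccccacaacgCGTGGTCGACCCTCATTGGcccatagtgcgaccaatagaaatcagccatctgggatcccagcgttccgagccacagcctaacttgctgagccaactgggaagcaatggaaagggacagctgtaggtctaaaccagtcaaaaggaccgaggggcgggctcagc
The element was in 37 of the 32851 promoters (0.113%), of 35 genes. Of the 23 tested chaperone and folding genes 18 had a promoter entry and 7 of those held the element: Calr, Canx, Creld2, Dnajc3, Hsp90b1, Hspa5 and Pdia6. All 7 fell, 3 of them by the small steps whose calls are lost as given above. On the list as a whole 16 of the 23 tested genes fell. Of all genes tested 20 held the element, and those outside the list are not counted here. Folding genes without a match in this window, such as Pdia4 (-0.70 ± 0.024), fell as well.

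**Figure D4:**
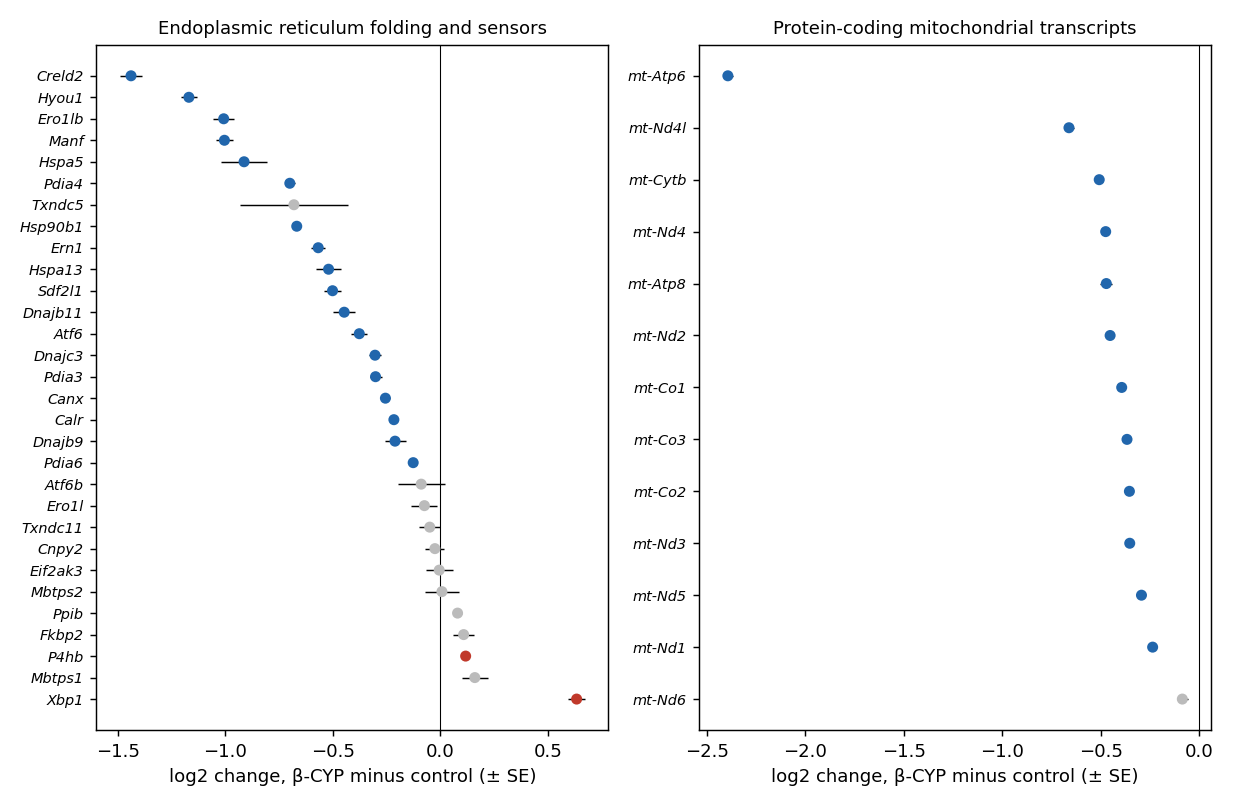
Log2 change with its standard error (horizontal axis) of 30 endoplasmic reticulum folding and sensor genes (left) and the 13 protein-coding mitochondrial transcripts (right); red rose, blue fell and grey did not pass. Creld2 and mt-Atp6 are the lowest of their panels, and Xbp1 and P4hb are the only genes drawn that rose.

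Other chaperones passed in 2 up and 10 down of 24 tested heat shock genes. Hsph1, a partner of HSP70, had 3205, 3185 and 3329 in control and 2052, 2074 and 1946 in β-CYP (log2 change -0.68 ± 0.039, adjusted p = 7.16e-05), and Hspa8 fell 1.39-fold. The small heat shock gene Hspb8 and its partner Bag3, which send misfolded proteins to autophagy, rose instead (0.84 ± 0.036 and 0.48 ± 0.050). In the integrated stress response, 3 rose and 8 fell of 32 tested. The falls were 3 without control replicate 1 or 2, 4 without control replicate 3 and 5 without β-CYP replicate 2 or 3, with equal totals or without the intensity trend. Chac1, which degrades glutathione, rose 2.51-fold, whereas Trib3, a target of the same factors, fell 1.78-fold and Ddit3 did not pass (-0.19 ± 0.10). Aminoacyl-tRNA synthetases, other targets of this response, passed in 3 of 39 (7.69%), and in none with equal totals or without the intensity trend.

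Of the 13 protein-coding transcripts of the mitochondrial genome 12 fell and mt-Nd6 did not pass (-0.09 ± 0.028), with 11 of the 12 falls between -0.66 and -0.24. mt-Cytb had 331747, 346589 and 343269 scaled counts in the control libraries and 239800.0, 240036 and 238314 in the β-CYP libraries (log2 change -0.51 ± 0.018, adjusted p = 8.14e-06). mt-Atp6 stood apart with 173161, 183256 and 183544 in control and 33820.0, 34891 and 34049.5 in β-CYP (log2 change -2.39 ± 0.027, adjusted p = 4.85e-08), while mt-Atp8, which overlaps it, fell by far less (-0.47 ± 0.030) and its neighbour mt-Co3 likewise (-0.37 ± 0.015). Without the strand and overlap settings of the counting, it is not known how reads in the stretch shared by mt-Atp6 and mt-Atp8 were assigned. The cause of the mt-Atp6 value was not tested. The call of mt-Co1 (-0.39 ± 0.020) was lost and its sign turned after quantile normalization, and that of mt-Nd1 (-0.24 ± 0.017) was lost there, with equal totals and without the intensity trend (adjusted p up to 0.377). The mitochondrial rRNAs mt-Rnr1 (13133, 73252 and 13649.8 in control and 11661, 11991 and 11491 in β-CYP) and mt-Rnr2 did not pass with control replicate 2, which was far above the other controls, and both fell without it.

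Of 28 tested antigen presentation genes 16 rose and 3 fell (15 and 2 without control replicate 2). Among 17 tested class I genes 10 rose and 2 fell (9 and 1 without control replicate 2). B2m, which encodes the light chain of class I molecules, was called lower in the main fit. Whether its call held under the alternatives is not given here. H2-K1, a class I heavy chain, had 11184, 11536 and 11898 scaled counts in the control libraries and 23658, 23504 and 23747 in the β-CYP libraries (log2 change 1.03 ± 0.026, adjusted p = 1.81e-06), and H2-D1 rose 1.3-fold. Nlrc5, the transactivator of class I genes, had 356, 394 and 401 in control and 718, 677 and 614 in β-CYP (log2 change 0.80 ± 0.084, adjusted p = 0.00113), and the peptide transporter Tap1 rose 1.51-fold. The class II chains H2-Ab1 (353, 334 and 299 in control and 741, 745 and 746 in β-CYP; log2 change 1.18 ± 0.075, adjusted p = 0.000118) and H2-Aa (1.12 ± 0.10) rose, as did H2-DMb1 (1.64 ± 0.19) and the invariant chain Cd74 (0.56 ± 0.048). In contrast H2-Bl had 649, 641 and 714 in control and 160.2, 156 and 175 in β-CYP (log2 change -2.02 ± 0.083, adjusted p = 1.41e-05), and H2-Ea-ps had 171 reads over the control libraries and none over the β-CYP libraries, at least 19.96-fold lower with 3 counts per library in place of 0. H2 genes are highly polymorphic and near-identical in parts, and whether the mice of the groups differed in genotype was not tested. Of 54 interferon response genes 16 rose and 2 fell (10 and 1 with equal totals and without β-CYP replicate 1 or 3, 9 and 1 without control replicate 1). Ly6a was 389.5, 443 and 571 in control and 1883, 772 and 1765 in β-CYP, with the second β-CYP library far below the other 2 (log2 change 1.57 ± 0.35, adjusted p = 0.027), a call lost without the intensity trend, with voom and when any library other than that one was left out (adjusted p up to 0.119). Cxcl10 did not pass (-0.63 ± 0.35).

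Markers of non-parenchymal cells moved unevenly. The Kupffer cell gene Clec4f had 3166, 2955 and 3232 in control and 3270.1, 3132 and 3048 in β-CYP and did not pass (log2 change 0.02 ± 0.046, adjusted p = 0.888), whereas Cd163, the haemoglobin scavenger receptor of macrophages, had 451, 436 and 455 scaled counts in the control libraries and 153, 142 and 161 in the β-CYP libraries (log2 change -1.55 ± 0.083, adjusted p = 5.15e-05). Spp1, osteopontin, expressed by bile duct cells and macrophages, had 2302, 2188 and 2143 in control and 6598, 6291 and 6539 in β-CYP (log2 change 1.55 ± 0.038, adjusted p = 1.61e-06), while the bile duct keratins Krt19 and Krt7 did not pass (0.52 ± 0.28 and 1.44 ± 1.10). Of 8 tested cholangiocyte markers 2 rose, Spp1 and Muc1, and none fell. Nearly all reads of this marker list are those of Spp1, so its sum adds nothing to the values of Spp1, and the part of bile duct cells in them was not tested. Krt8 and Krt18, the keratins of hepatocytes, rose 1.58-fold and 1.4-fold. Dmbt1, a secreted mucosal scavenger protein, had 6.07, 3.02 and 10.3 scaled counts in the control libraries and 650.1, 634 and 649.8 in the β-CYP libraries (log2 change 6.56 ± 0.36, adjusted p = 6.16e-05). Timp1, which blocks matrix-degrading enzymes, had no read in any control library and 89.4, 62.3 and 83.2 scaled counts in β-CYP, at least 24.8-fold higher with 3 counts per library in place of 0, beside Col1a1, which did not pass (0.27 ± 0.089). Of 37 tested matrix and protease genes 8 rose and 1 fell (24.3% passed, against 15.0% of all genes tested). Of 12 tested lymphocyte markers 2 rose and 1 fell, with a median log2 change of -0.33, although their sum was higher (334.2 to 445.7 scaled counts in control and 541.2 to 650.1 in β-CYP). Of all genes tested 6.9% rose and 8.12% fell.

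Cdkn1a, the cyclin-dependent kinase inhibitor p21, had 50.6, 17.1 and 76.6 scaled counts in the control libraries and 385, 372 and 352 in the β-CYP libraries (log2 change 3.15 ± 0.50, adjusted p = 0.00689), with the controls spread over a wide range below all β-CYP libraries. Of 40 tested cell cycle genes 1 rose and 3 fell (none and 1 with equal totals), and Mki67 did not pass (121, 131 and 143 in control and 165, 171 and 149 in β-CYP). The share of this list that passed was 10%, against 15.0% of all genes tested. Activin subunit genes differed. Inhbb had 46.5, 30.2 and 28.6 in control and 136, 155 and 145 in β-CYP (log2 change 2.05 ± 0.22, adjusted p = 0.00126), and Inhbe, made mainly by hepatocytes, had 1926, 1847 and 1888 in control and 4275, 4075 and 4171 in β-CYP (log2 change 1.14 ± 0.034, adjusted p = 3.69e-06). Inhba fell (-0.52 ± 0.13, adjusted p = 0.0403), a call lost with equal totals, without the intensity trend and when any library other than β-CYP replicate 3 was left out (adjusted p up to 0.141), and Inhbc did not pass (-0.09 ± 0.032). Cdh1, E-cadherin, fell 1.68-fold and Ocln, occludin of tight junctions, 1.4-fold. Of the immediate early factors, Egr1 (1.57 ± 0.063), Junb (1.03 ± 0.048) and Jun (0.75 ± 0.088) rose and Fos did not pass (0.78 ± 0.40). Ribosome biogenesis genes rose in 11 and fell in 2 of 50, and the rises were 5 to 7 without control replicate 2 or 3 or β-CYP replicate 1 or 3, 7 with equal totals and 3 without the intensity trend.

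Of 32 tested clock genes 4 rose and 15 fell (3 and 9 with equal totals, 2 and 7 without the intensity trend), with a median log2 change of -0.26. Noct, a rhythmic NADPH phosphatase, had 1884, 2104 and 1898 scaled counts in the control libraries and 553, 382 and 551 in the β-CYP libraries (log2 change -2.002 ± 0.15, adjusted p = 0.00023). Per2 had 917, 929 and 1006 in control and 483, 566 and 542 in β-CYP (log2 change -0.84 ± 0.077, adjusted p = 0.000576), Dbp fell 1.23-fold, and Nfil3, which opposes it on shared sites, rose 2.05-fold. Arntl did not pass (0.08 ± 0.11). The labels give no hour of sampling, so time of day and treatment cannot be told apart. Targets of the glucocorticoid receptor moved in opposite directions: Fkbp5 had 2765, 2807 and 2560.1 in control and 6596, 6759 and 6446 in β-CYP (log2 change 1.28 ± 0.043, adjusted p = 6.28e-06), and Tsc22d3 had 3958, 3576 and 4228 in control and 2252, 2357 and 2134 in β-CYP (log2 change -0.80 ± 0.068, adjusted p = 0.000441), with Klf15 also lower (-0.76 ± 0.034). Among amino acid enzymes Ddc, which decarboxylates L-DOPA, had 2978, 2832 and 2981 in control and 778, 751 and 753 in β-CYP (log2 change -1.94 ± 0.040, adjusted p = 9.71e-07).

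Golgi glycosyltransferases, which finish the sugar chains of secreted proteins, rose in 12 and fell in 3 of 34 tested (7 and 1 without control replicate 2, 8 and 1 with equal totals, 6 and 1 without the intensity trend). B3galt1, a galactosyltransferase, had 1026, 843 and 925 scaled counts in the control libraries and 4617, 4409 and 4649 in the β-CYP libraries (log2 change 2.29 ± 0.073, adjusted p = 5.04e-06), and B4galt1 had 1115, 1198 and 1175 in control and 2621, 2602 and 2656 in β-CYP (log2 change 1.18 ± 0.040, adjusted p = 7.45e-06). Galnt2, which starts O-linked chains, rose 1.64-fold and St3gal4, a sialyltransferase, 1.33-fold. In sphingolipid metabolism 5 rose and 4 fell of 23 tested (39.1% passed, against 15.0% of all genes tested). Cers6, a ceramide synthase, had 430.0, 436 and 512 in control and 1004, 1061 and 1098 in β-CYP (log2 change 1.201 ± 0.083, adjusted p = 0.000162), Smpd3, a sphingomyelinase, rose 2.24-fold and Sptlc2, of the first enzyme of the route, 1.5-fold, while Sgms2, which makes sphingomyelin from ceramide, had 1671, 1632 and 1578 in control and 999.5, 1006 and 946 in β-CYP (log2 change -0.73 ± 0.046, adjusted p = 0.000109). The plot of gene groups sets these counts beside the share of all genes.

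**Figure D5:**
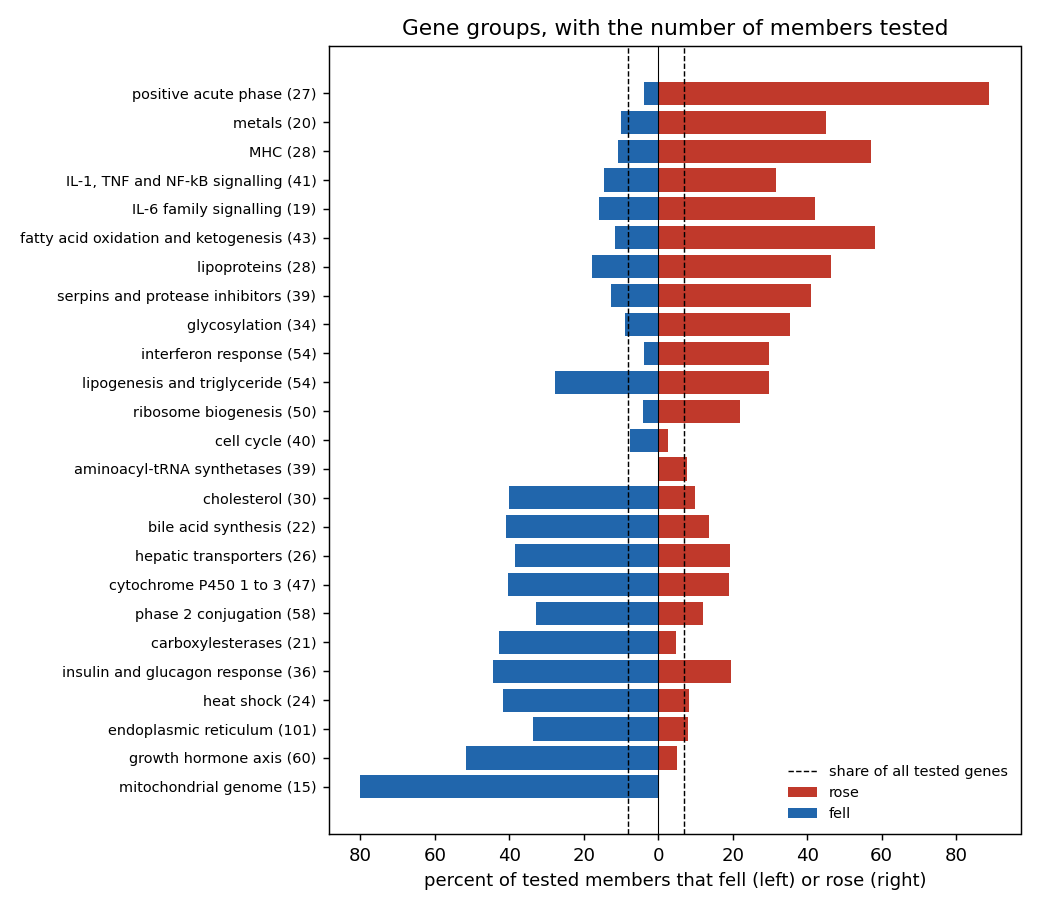
Percent of tested members that rose (red, right) or fell (blue, left) in 25 of the gene lists, with the number tested in brackets; dashed lines mark 6.9% rising and 8.12% falling among all 20285 genes tested. Positive acute phase genes have the longest bar to the right and the mitochondrial genome, which includes its 2 rRNAs, the longest to the left. The lists drawn were chosen by hand. The dashed lines do not allow for level: in either direction 34.3% of genes passed at 1000 to 10000 scaled counts and 70.8% at 10000 or more. Lists of abundant genes are to be read against those shares.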

How the data were processed

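RNA from liver was extracted with Trizol and made into TruSeq libraries, per the labels' protocols. Those protocols name a BGISEQ instrument and the study's text an Illumina one. HISAT, Cufflinks and the build mm9 are given without versions or roles in the submitters' processing notes. For the counting tool, annotation and strand setting, nothing is stated in the sources used. The deposited table holds log2(scaled count + 1) for 25781 genes in 9 libraries, from the values themselves: undoing the log2 gave whole reads within 0.02 in all libraries, with median-of-ratios factors.

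The main test was limma 3.58.1 (R 4.3.3) on the deposited log2 values of the 6 libraries, with an intensity trend, over 20285 genes whose scaled counts averaged 1 or more (5496 were not tested), at an adjusted p of 0.05, two-sided. The procedure was also run on simulated counts, with 1 dispersion for all genes that was not fitted to these data. That run therefore does not measure its error rates here. Depth was 28630269 to 36029560 reads, and the median coefficient of variation was 88.6% in control below a mean of 10 and 1.66% at 10000 or more.

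Genes were named as the 12 with the most gained and the 12 with the most lost scaled counts (at least 1.5-fold), the 10 largest rises and falls with a mean of at least 100 in both groups, and members of 54 lists; some genes that the rule takes in are not reported here. Members and lists were chosen with earlier results of these data known. The 18 alternatives were 4 other scalings (equal totals, equal medians, quantiles, trimmed means), pseudocounts of 0.1 and 10, a minimum mean of 10, no filter, all 9 libraries in the fit, no intensity trend, voom, a replicate block and leaving out each library. Promoters are those of RefSeq on GRCm38.p6, matched by symbol.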

Additional observations from a re-analysis of the deposited data

How the results depend on the processing

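Of the 18 alternatives, 3 moved the count of 3046 genes by over 1.5 times. With equal totals 2015 genes passed (957 higher and 1058 lower), without the intensity trend 1850 (844 and 1006), and with the replicate block 1984 (907 and 1077). The replicate numbers share only a number, with correlations of 0.012, -0.020 and 0.014 between same-numbered libraries, and not every library correlated best with its own number. Leaving out each library in turn gave 2265 to 2489 genes, 1013 to 1152 higher and 1220 to 1337 lower. The other alternatives gave 2892 to 3307. Of the 266 genes named, leaving out B2m, 229 passed, and 213 of these passed under every alternative that tested them. The block ended none of the 229 calls. Among the 229, the calls of 4 genes (Ly6a, Inhba, Nfkbia and Birc3) were lost when some single library was left out. B2m is not in these counts, and class I genes gave 2 falls in the main fit and 1 without control replicate 2. Those of 11 genes were lost under some scaling. After quantile normalization, which ranks each library, the log2 change of Alb was 0, that of Apob -0.27 and that of mt-Co1 0.21, and that of AY036118 ranged from -2.10 to 0.57 as libraries were left out, the latter without control replicate 2. The cause was not tested. Below a mean of 10 scaled counts the spread limits calls to changes of at least 2.78-fold among the genes that passed.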

Other observations

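Transcripts of late sperm cells were present at low level in the control livers and nearly absent in the β-CYP livers. Prm2, a protamine that packs sperm DNA, had 103, 85.6 and 62.9 in control and 5.20, 0 and 0 in β-CYP scaled counts, and Prm1 had 52.6, 38.2 and 45.7 in control and 0, 3.06 and 0 in β-CYP. Tnp1, a transition protein of spermatids, had 146 reads over the 3 control libraries and none over the β-CYP libraries, at least 17.1-fold lower with 3 counts per library in place of 0. The same bound was 11.9-fold for Smcp, 11.2-fold for Akap4 and 7.41-fold for Odf1, and Tnp2 fell too (31.4, 35.2 and 38.9 in control and 3.12, 0 and 2.77 in β-CYP), a call lost with a pseudocount of 0.1 (adjusted p = 0.0525). All 7 markers of these cells listed fell, with sums of 296.0 to 319.7 scaled counts in control and 2.77 to 8.32 in β-CYP. This list was chosen with earlier results of these data known, so the count of falls is no test. Of all genes tested 8.12% fell.

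Several further genes were near 0 in every library of 1 group, and they were chosen after their values were seen. Gm10260, a predicted gene, had 1599, 1535 and 1599 scaled counts in control and no read in β-CYP, at least 528.4-fold lower. Igsf23, an immunoglobulin superfamily gene, had 446 reads over the controls against 3 after β-CYP (157.3-fold, 95% counting interval 53.5 to 765.7). In the other direction Gdpd3, a lysophospholipase, had 3.04, 0 and 9.14 in control and 123, 126 and 182 in β-CYP, and Syt12, a synaptotagmin, had 46.5, 55.4 and 28.6 in control and 400.4, 419 and 360.5 in β-CYP. Nrep, a neuronal regeneration protein, fell without being absent (659.6, 683 and 683 in control and 42.6, 58.2 and 79.5 in β-CYP; log2 change -3.51 ± 0.21, adjusted p = 9.47e-05). Intervals cover counting error only, and whether the mice of the groups differed in genotype was not tested.

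A few further genes are given by value only, chosen after their values were seen. Muc1, an epithelial mucin, rose 4.31-fold (log2 change 2.07 ± 0.35, adjusted p = 0.00879). Acta2, smooth muscle actin, rose 1.89-fold, beside summed stellate cell markers of 8768 to 8938 in control and 9567 to 10022 in β-CYP. Vnn1, a pantetheinase, rose 2.27-fold, and Slc3a1, of the cystine transporter, 1.75-fold. Of steroid genes Srd5a1, a 5-alpha reductase, fell 1.47-fold and Hsd17b2 1.33-fold.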
